A study of Mus musculus with 12 samples.

Results

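Gastruloids embedded at 96 h in a stiffer gel of 1.5 mM were compared with gastruloids embedded at 96 h in a softer gel of 1.0 mM. These 6 libraries, 3 per gel, were chosen by gel and embedding time from the 12 bulk RNA-seq libraries of the experiment, and all genes off the mitochondrial chromosome were kept, which left 55105 of the 55141 genes in the count table. A filter on low counts left 15861 genes to test. The other 6 libraries, embedded at 72 h in the same gels, served as a second set in which the gel comparison could be repeated. All gastruloids were aggregates of 300 mouse embryonic stem cells of the 129/SVEV background, given a pulse of 3 µM CHIR99021, an activator of Wnt signalling, for 24 h from 48 h after seeding in N2B27 medium. They were collected at 120 h, whichever gel they were in and whenever they had been embedded. The gels were networks of dextran and polyethylene glycol without adhesive ligands, and the concentration of reactive groups set the stiffness. By the study's theoretical estimates the mesh is also finer in stiffer gels, and the study expects secreted or added factors to move more slowly there. Stiffness and transport thus change together between these gels, and their separate parts were not tested. Gastruloids were freed from the gel with dextranase before lysis, and the methods give a minimum duration of this step but not the time for each dish. Each library pooled about 30 gastruloids from a biological replicate, so variation between single gastruloids cannot be seen. In such bulk samples, fewer cells of a type and less RNA per cell cannot be told apart.

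A gastruloid breaks symmetry after the Wnt pulse and forms a posterior pole that expresses the mesoderm factor *T*, from which presomitic and somitic mesoderm, endothelium, cardiac-like mesoderm and neural tissue are laid down along an axis. Bone morphogenetic proteins (BMPs) signal through Smad factors to the *Id* and *Msx* genes, and are known in the embryo for ventral, extraembryonic and cardiac fates. Immediate-early genes such as *Fos* and *Egr1* need no new protein for their transcription, and serum factors, kinase signalling, handling and mechanical load are all known to switch them on within minutes.

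The tissue matched its label by these markers. *T* was at 69.8 to 138 CPM (read counts scaled to TMM-adjusted library totals), the somite gene *Meox1* at 243 to 405 CPM, the mesoderm gene *Foxc1* at 241 to 275 CPM, the endothelial receptor gene *Kdr* at 135 to 190 CPM and the endoderm gene *Sox17* at 25.8 to 33.4 CPM. *Tbx6*, a presomitic gene, was low at 1.18 to 3.24 CPM. Total counts per library ran from 25398824 to 27609422. Replicate 2 of the 1.5 mM gels stood apart from the other libraries. The chi-squared statistic of its counts, per degree of freedom, was 30.6 against replicate 1 and 46.0 against replicate 3 of its group, whereas the other pairs of replicates lay between 9.23 and 12.7. Counts of ribosomal RNA were included in this statistic. They were 4.21% of the total in this library, against 1.52% and 0.842% in replicates 1 and 3 of its group. Their part in the statistic was not tested. In a PCA of log2(1 + FPKM) over the 500 most variable genes, PC1 held 33.3% of the variance. Its scores were -7.22, -4.50 and -12.2 for replicates 1 to 3 of the 1.0 mM gels and 3.75, 17.4 and 2.77 for those of the 1.5 mM gels. The gels thus did not overlap on PC1, and replicate 2 of the 1.5 mM gels had the highest score. PC2, with 25.1%, set replicate 1 of both gels (8.83 and 14.1) against the other 4 libraries (-6.93 to -4.28).

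Ribosomal RNA carried over into the poly-A libraries also differed between the gels. It took 0.207%, 0.672% and 0.541% of the counts in replicates 1 to 3 of the 1.0 mM gels and 1.52%, 4.21% and 0.842% in those of the 1.5 mM gels. These shares did not overlap, and nearly all of the counts (99.988%) came from a single gene, *CT010467.1* (chromosome 17 of mm10, from 39846353 to 39848201). At 72 h the shares overlapped, with 6.12%, 1.25% and 0.223% in the 1.5 mM gels and 1.04% to 2.67% in the 1.0 mM gels. The part of this RNA in the differences described here was not tested. With edgeR 0 genes were called both with its counts and without them, so leaving them out cannot show that part.

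**Figure D1:**
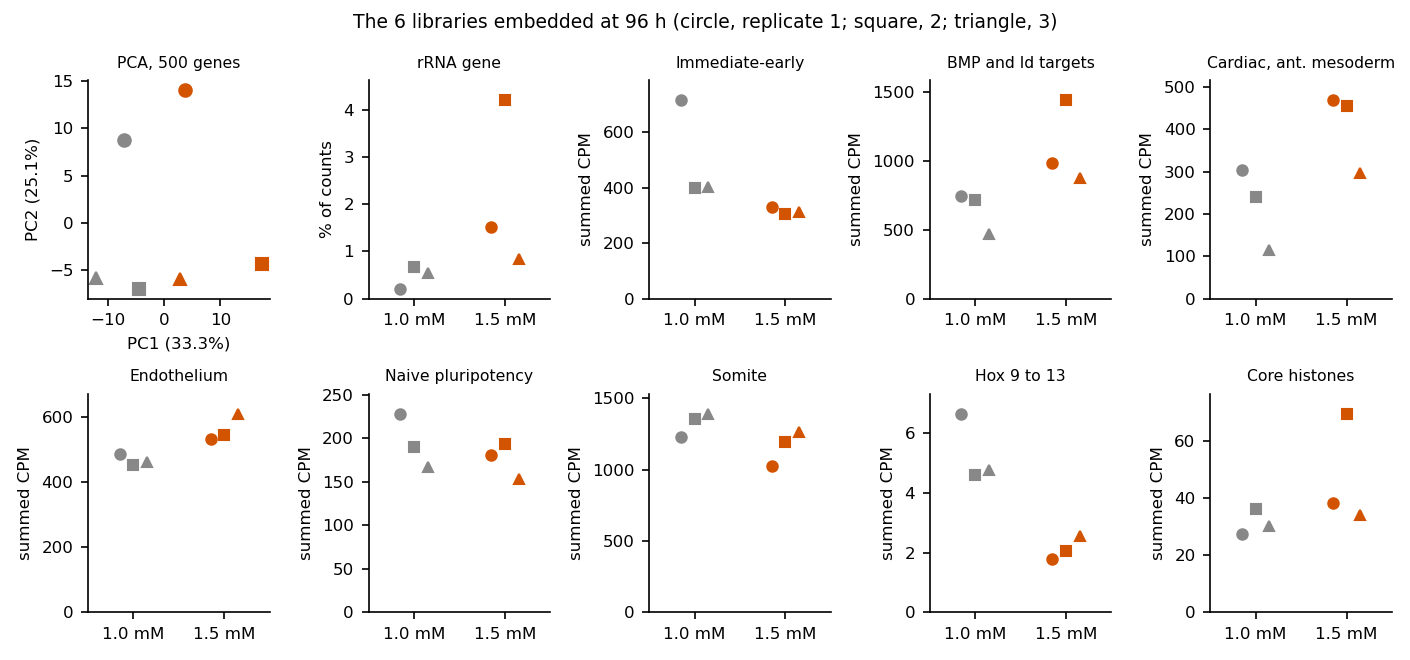
The 6 libraries embedded at 96 h, with 1.0 mM gels in grey and 1.5 mM gels in orange. The first panel plots PC1 (33.3%) against PC2 (25.1%) and the others the summed CPM of a gene list, or the rRNA share of counts in percent, in each library. Replicate 2 of the 1.5 mM gels (square) has the highest PC1 score, the highest rRNA share (4.21%) and the highest summed level of BMP and histone genes, and replicate 1 of the 1.0 mM gels (circle) the highest level of immediate-early genes.

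With edgeR (quasi-likelihood test), 0 of 15861 genes were differentially expressed (DE) between 1.5 mM and 1.0 mM gels, taking as DE an adjusted p below 0.05 with an absolute log2 fold change above 1 (0% of the genes tested). An unadjusted p below 0.05 was reached by 1578 genes, 800 higher (5.04%) and 778 lower (4.91%) in 1.5 mM gels. limma-voom called 0 genes DE and had 1592 at an unadjusted p below 0.05, whereas DESeq2 called 10 genes (0.0630%) and had 1317. Without the fold-change threshold DESeq2 passed 96 genes, 46 higher (0.290%) and 50 lower (0.315%). The libraries of the gels did not overlap for 1176 genes that were higher (7.41%) and 1296 that were lower (8.17%) in 1.5 mM gels. In the text, higher and lower refer to 1.5 mM gels relative to 1.0 mM gels, and log2 fold changes carry the same sign. Since edgeR called no gene, the counts of list members at an unadjusted p below 0.05 are descriptions to be read against 5.04% and 4.91%.

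The comparison could exclude large differences for most genes. Of the genes tested, 13706 (86.4%) had a 95% interval of the log2 fold change that lay between -1 and 1, and the median distance from the estimate to the end of its interval was 0.23. This held for 99.7% of the 5989 genes with over 1000 counts on average, for 98.3% of those with 100 to 1000 counts and for 54.2% of those with fewer. Only 139 genes (0.876%) had an estimate beyond 1 log2 unit in either direction, and 113 of them had under 100 counts on average. The median over all genes was -0.0047.

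**Figure D2:**
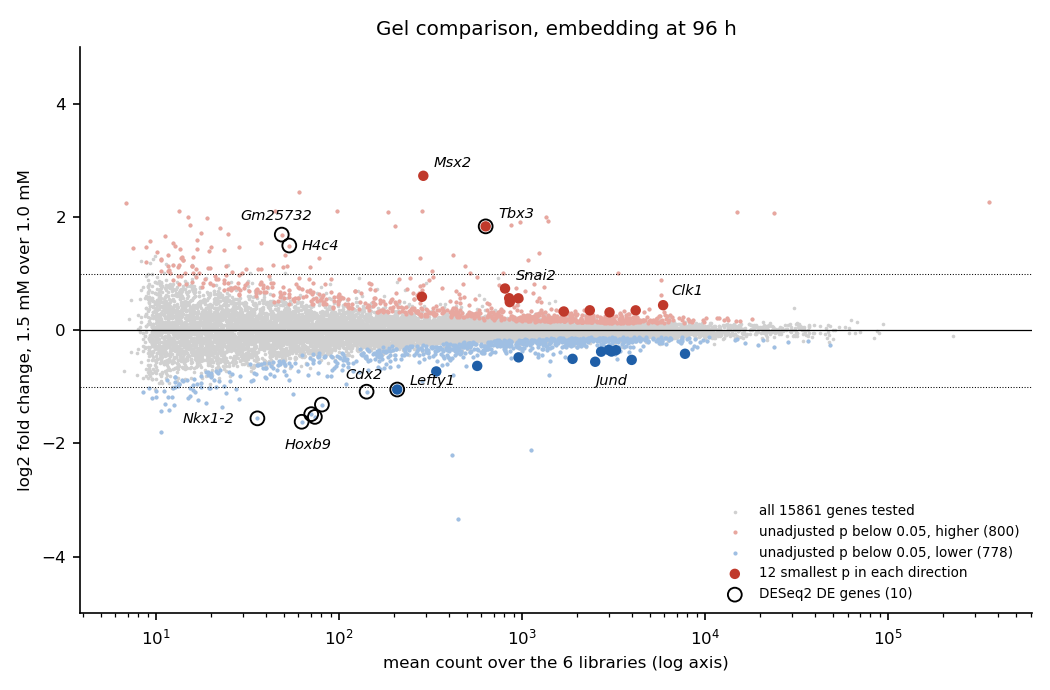
Log2 fold change (1.5 mM over 1.0 mM, embedding at 96 h) of each of the 15861 genes against its mean count over the 6 libraries on a log axis. Pale red and pale blue points are the 800 higher and 778 lower genes at an unadjusted p below 0.05, large points the 12 with the smallest p in each direction, and rings the 10 genes that DESeq2 called. Most points lie between the dotted lines at -1 and 1.

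The gene with the smallest p was *Jund* (ENSMUSG00000071076, chromosome 8 of mm10, from 70698949 to 70700616), a subunit of the AP-1 transcription factor. Its level was 119, 120 and 110 CPM in replicates 1 to 3 of the 1.0 mM gels and 71.8, 83.7 and 81.7 CPM in replicates 1 to 3 of the 1.5 mM gels. All 3 libraries of the stiffer gel were lower, with tight replicates in both gels. The log2 fold change was -0.56 (SE 0.07, edgeR adjusted p = 0.0504, DESeq2 adjusted p = 7.13e-08). *Jund* was lower in the separate libraries embedded at 72 h too, by a log2 fold change of -0.44. *Clk1* (ENSMUSG00000026034, chromosome 1, from 58412000 to 58424066), a kinase of SR splicing factors, was at 193, 194 and 198 CPM in the 1.0 mM gels and 251, 275 and 269 CPM in the 1.5 mM gels. It was higher in all libraries of the stiffer gel, with a difference of 0.44 log2 units (SE 0.06, edgeR adjusted p = 0.0504). *Snai2* (ENSMUSG00000022676, chromosome 16, from 14705852 to 14709385), a repressor of epithelial genes, was at 25.3, 23.9 and 21.6 CPM in the 1.0 mM gels and 39.6, 44.3 and 34.2 CPM in the 1.5 mM gels. Here also the gels did not overlap, and the log2 fold change was 0.74 (SE 0.10, edgeR adjusted p = 0.0682). At 72 h *Clk1* and *Snai2* had smaller log2 fold changes of 0.25 and 0.20, each with overlap between the gels. *Jund*, *Clk1* and *Snai2* were the only genes with an edgeR adjusted p below 0.1 at 96 h.

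Immediate-early genes were lower in the stiffer gel as a list. Of 18 listed genes 16 passed the filter (*Egr4* and *Fosl1* did not). All 16 had a negative log2 fold change, 12 were lower at an unadjusted p below 0.05 and 0 were higher. The median log2 fold change was -0.55. The libraries of the gels did not overlap for 10 of the 16. Summed over the list, the level was 718, 399 and 402 CPM in replicates 1 to 3 of the 1.0 mM gels and 331, 306 and 312 CPM in those of the 1.5 mM gels, so that replicate 1 of the softer gel stood far above the rest.

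Windows of 250 bases before the transcription start are printed for 4 of these genes, because they show the response elements by which immediate-early genes are known to be switched on. The sequences are from RefSeq (GRCm38.p6), 5′ to 3′ on the strand of the gene. Capitals mark TGACG, the core of the cAMP response element that CREB, ATF and some AP-1 dimers bind, its full palindrome TGACGTCA (which holds TGACG), or the CArG box bound by serum response factor. Both strands were searched. *Fos* is shown from chr12:85473640-85473889 (plus strand), *Fosb* from chr7:19310046-19310295 (minus strand), *Egr2* from chr10:67537316-67537565 (plus strand) and *Btg2*, chosen after its values were seen, from chr1:134079156-134079405 (minus strand).
Fos: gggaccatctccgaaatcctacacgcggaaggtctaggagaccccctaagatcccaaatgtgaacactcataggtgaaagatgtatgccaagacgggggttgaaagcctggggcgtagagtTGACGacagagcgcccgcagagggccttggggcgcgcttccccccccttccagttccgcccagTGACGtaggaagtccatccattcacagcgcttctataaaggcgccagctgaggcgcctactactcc
Fosb: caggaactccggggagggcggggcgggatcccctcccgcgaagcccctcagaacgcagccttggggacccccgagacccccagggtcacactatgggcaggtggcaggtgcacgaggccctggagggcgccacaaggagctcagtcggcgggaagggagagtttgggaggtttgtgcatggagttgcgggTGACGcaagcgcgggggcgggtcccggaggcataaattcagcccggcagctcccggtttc
Egr2: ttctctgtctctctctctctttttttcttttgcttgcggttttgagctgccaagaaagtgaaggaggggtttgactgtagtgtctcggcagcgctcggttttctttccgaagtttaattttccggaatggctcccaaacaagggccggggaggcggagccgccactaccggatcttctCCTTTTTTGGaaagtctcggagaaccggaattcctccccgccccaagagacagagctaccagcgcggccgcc
Btg2: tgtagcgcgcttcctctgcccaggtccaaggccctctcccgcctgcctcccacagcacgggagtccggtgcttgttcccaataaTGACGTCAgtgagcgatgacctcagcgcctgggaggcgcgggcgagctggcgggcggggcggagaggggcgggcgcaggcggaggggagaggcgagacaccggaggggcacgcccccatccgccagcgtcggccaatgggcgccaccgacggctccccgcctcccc
In *Fos*, TGACG occurred at a pair of sites that ended 124 and 61 bases before the start, and in *Fosb* at a site 55 bases before it. The CArG box of *Egr2* ended 62 bases before the start and lay in 4 of the gene's 5 RefSeq windows. The palindrome of *Btg2* ended 158 bases before the start. Windows were found for 13 of the 18 listed genes. Counting a gene if any of its windows held the letters, TGACG was present in 9 of these 13 genes against 19.8% of the 27025 genes with a window, TGACGTCA in 2 (*Btg2* and *Dusp1*) against 1.77%, and the CArG box in 2 (*Egr2* and *Zfp36*) against 1.62%. *Egr2* is among the 9 through other windows than the one printed, which holds no TGACG. Counted by window, TGACG was in 11 of the 17 windows of these genes against 17.8% of all 32851 windows. These matches describe letters in the windows, not factor binding.

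*Fosb*, which encodes a partner of the Jun proteins in AP-1, had the lowest log2 fold change of the list. It was at 70.5, 10.7 and 12.8 CPM in the 1.0 mM gels and 4.84, 1.58 and 2.86 CPM in the 1.5 mM gels. Every library of the stiffer gel was below every library of the softer gel, but replicate 1 of the 1.0 mM gels was far above its own group. The log2 fold change was -3.33 (SE 0.67, edgeR adjusted p = 0.133, DESeq2 adjusted p = 0.0535). *Fos* had the same shape, with 57.5, 8.89 and 12.0 CPM against 7.52, 3.80 and 5.69 CPM and a difference of -2.20 log2 units (SE 0.57, edgeR adjusted p = 0.253). *Egr1*, a zinc-finger factor, was at 132, 37.0 and 41.6 CPM in the 1.0 mM gels and 21.9, 10.7 and 15.7 CPM in the 1.5 mM gels. The gels again did not overlap, and the log2 fold change was -2.12 (SE 0.42, edgeR adjusted p = 0.129).

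The relatives *Egr2* and *Egr3* were among the 10 genes that DESeq2 called. *Egr2* was at 7.33, 2.52 and 2.89 CPM in the 1.0 mM gels and 2.27, 1.09 and 1.02 CPM in the 1.5 mM gels, a log2 fold change of -1.53 (edgeR adjusted p = 0.286, DESeq2 adjusted p = 0.0209). *Egr3* was at 6.25, 2.80 and 4.29 CPM against 1.70, 2.06 and 1.61 CPM, a log2 fold change of -1.31 (edgeR adjusted p = 0.160, DESeq2 adjusted p = 0.00558). For both genes replicate 1 of the softer gel was the highest library and the gels did not overlap. Without that library, 9 of the immediate-early genes were still lower at an unadjusted p below 0.05 and the median was -0.34. A list of 13 AP-1 genes was drawn up after values had been seen. It holds *Jund* and shares *Fos*, *Fosb*, *Junb* and *Atf3* with the immediate-early list, so it is not a separate set. Of its genes, 6 of 12 tested were lower and 0 higher, with a median of -0.42. They included *Maff*, a small Maf protein, with 9.88, 9.34 and 10.5 CPM against 6.95, 5.75 and 6.47 CPM and a log2 fold change of -0.63 (edgeR adjusted p = 0.160).

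The same genes could be read in the libraries embedded at 72 h, which the comparison at 96 h did not use. There, with levels normalised separately, *Fosb* was at 82.9, 17.8 and 5.45 CPM in 1.0 mM gels and 3.61, 2.21 and 1.05 CPM in 1.5 mM gels. *Egr1* was at 112, 67.6 and 48.5 CPM against 23.7, 14.2 and 10.9 CPM. The gels did not overlap for either gene, and replicate 1 of the 1.0 mM gels was again the highest library for *Fosb*, *Fos* and *Egr1*. At 72 h, 11 of the 16 immediate-early genes were lower at an unadjusted p below 0.05 and 0 were higher (2.90% of all genes tested at 72 h were lower, and 6.90% passed in either direction), with a median of -0.58. The difference between the gel differences at 96 h and 72 h was tested over all 12 libraries. It was below an unadjusted p of 0.05 for 1 of the 16 genes (*Atf3*) and for 4.28% of the genes tested at 96 h.

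Genes that report ERK and YAP activity were examined next to the immediate-early genes, since both pathways can respond to mechanical load. Among 15 genes of ERK feedback, 3 were lower at an unadjusted p below 0.05 and 0 higher, with a median of -0.08. *Dusp4*, an ERK phosphatase, was at 46.1, 38.7 and 45.1 CPM in the 1.0 mM gels and 32.1, 30.6 and 30.4 CPM in the 1.5 mM gels, a log2 fold change of -0.48 (edgeR adjusted p = 0.122). *Dusp6*, a second ERK phosphatase, was at 62.3, 50.0 and 52.8 CPM against 41.6, 36.0 and 41.2 CPM (log2 fold change -0.47, edgeR adjusted p = 0.129). Neither gene overlapped between gels at 96 h. *Dusp4* had a log2 fold change of 0.08 at 72 h, and the difference between the embedding times was -0.56 (edgeR unadjusted p = 0.00076, adjusted p = 0.953). Of 18 YAP and TEAD targets tested at 96 h, 6 were lower and 1 was higher, with a median of -0.09. The angiomotin gene *Amotl2* had the smallest p with a log2 fold change of -0.43 (edgeR adjusted p = 0.253). Of 19 SRF targets and contractile actin genes, 2 were lower and 1 was higher, with a median of 0.02.

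The BMP and Id list lay on the other side. All 14 listed genes were tested, 13 had a positive log2 fold change, 8 were higher at an unadjusted p below 0.05 and 0 were lower. The median was 0.59. The summed level was 744, 716 and 471 CPM in replicates 1 to 3 of the 1.0 mM gels and 986, 1442 and 877 CPM in those of the 1.5 mM gels. The gels did not overlap, with replicate 3 of the softer gel lowest and replicate 2 of the stiffer gel highest.

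*Msx2*, a homeobox gene induced by BMP, had the largest difference of the list. It was at 4.44, 3.82 and 0.777 CPM in the 1.0 mM gels and 14, 34.6 and 10.9 CPM in the 1.5 mM gels. All libraries of the stiffer gel were above those of the softer gel, and the log2 fold change was 2.73 (SE 0.50, edgeR adjusted p = 0.122, DESeq2 adjusted p = 0.10). *Id1*, an inhibitor of bHLH factors, was at 106, 100.3 and 55.8 CPM against 151, 232 and 145 CPM, a log2 fold change of 1.01 (edgeR adjusted p = 0.160). Its relative *Id2* was at 191, 189 and 150 CPM against 239, 340 and 239 CPM, a log2 fold change of 0.63 (edgeR adjusted p = 0.160). For each of the 3 genes replicate 3 of the 1.0 mM gels was lowest and replicate 2 of the 1.5 mM gels highest. *Smad7*, an inhibitor of BMP and TGF-beta receptors, had a log2 fold change of 1.25 (edgeR adjusted p = 0.160). *Id3* (0.88) and *Msx1* (1.85), named after their values were seen, were also higher without overlap. The ligand genes differed less, with log2 fold changes of 0.45 for *Bmp4*, 0.16 for *Bmp5*, 0.04 for *Bmp7* and -0.01 for *Bmp2*, and their libraries overlapped between the gels. Leaving out each library in turn left 7 to 11 genes of the list higher and a median of 0.41 to 0.71.

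Cardiac and anterior mesoderm genes differed in the same direction. All 16 listed genes were tested and had positive log2 fold changes, 10 were higher at an unadjusted p below 0.05 and 0 were lower, with a median of 0.84. Their summed level was 305, 240 and 114 CPM in the 1.0 mM gels and 470, 455 and 296 CPM in the 1.5 mM gels, so that the sums overlapped between replicate 1 of the softer gel and replicate 3 of the stiffer gel. *Isl1*, a factor of cardiac progenitors, was at 29.1, 18.5 and 13.1 CPM against 42.0, 49.6 and 31.2 CPM without overlap, a difference of 1.02 log2 units (SE 0.23, edgeR adjusted p = 0.189). *Tbx20*, a cardiac T-box gene, had a log2 fold change of 1.33 (edgeR adjusted p = 0.260). *Gata5* and *Gata6*, zinc-finger factors of heart and endoderm, had log2 fold changes of 1.28 and 0.66 (edgeR adjusted p = 0.313 and 0.286). The size of the difference moved with single libraries. Without replicate 1 of the 1.0 mM gels 16 genes of the list were higher and the median was 1.54, and without replicate 3 of those gels 7 genes were higher and the median was 0.51. Without replicate 1 of the 1.5 mM gels 7 genes were higher, with a median of 0.58. The count also moved with the method. At an unadjusted p below 0.05, 5 genes were higher with DESeq2 and 13 with limma-voom. With edgeR 7 were higher in the fit of all 12 libraries and 16 without the filter on low counts.

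Markers of other cells that can share these genes were read beside both lists. Among 11 trophoblast markers with a row of counts, 5 were tested, with a summed level of 24.0 to 65.3 CPM in 1.0 mM gels and 59.7 to 126 CPM in 1.5 mM gels. Of the tested markers *Hand1*, which cardiac mesoderm also expresses, and *Gata3* were higher and *Krt7* and *Tfap2c* lower at an unadjusted p below 0.05. *Hand1* was at 37.8, 38.5 and 5.33 CPM against 73.4, 96.7 and 39.5 CPM (log2 fold change 1.36, edgeR adjusted p = 0.409). The defining trophoblast gene *Elf5* had at most 3 counts in any library. Extraembryonic endoderm markers summed to 436 to 485 CPM in 1.0 mM and 457 to 551 CPM in 1.5 mM gels, and *Afp* had 0 counts in every library. Of 9 such markers tested 8 had a positive log2 fold change, and 2 were higher and 0 lower at an unadjusted p below 0.05. Of 10 primitive blood markers 2 were tested, with sums of 12.0 to 13.0 CPM against 13.3 to 17.4 CPM, and the globin gene *Hbb-y* was at 0 counts. Of 12 fibroblast and leukocyte markers 9 were tested, with sums of 275 to 349 CPM against 285 to 316 CPM, and *Ptprc* was at 0 counts. The part of these cells in the differences was not tested.

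At 72 h the BMP and cardiac lists had other medians, -0.02 for the BMP list and -0.35 for the cardiac list. Of the BMP genes 3 of 14 were nevertheless higher there at an unadjusted p below 0.05 and 0 were lower. They were *Id1* (log2 fold change 0.19), *Id3* (0.20) and *Smad7* (0.41), with smaller values than at 96 h. *Id2* had 0.16, *Msx1* 0.26 and *Msx2* 0.32 at 72 h, so that these 6 genes had the same sign at both times. Not all higher genes did. *Bambi* and *Smad6*, named after their values were seen, were higher at 96 h at an unadjusted p below 0.05 (0.55 and 0.80). Both had a log2 fold change of -0.15 at 72 h. Of the cardiac genes 0 were higher and 1 was lower at 72 h. For *Msx2* the difference between the embedding times was 2.40 on the log2 scale (edgeR adjusted p = 0.953 over all 12 libraries). At an unadjusted p below 0.05 this difference held for 7 of the 14 BMP genes and 11 of the 16 cardiac genes, against 4.28% of all genes. With edgeR, however, 0 of 16388 genes passed the test of that difference after adjustment (708 at an unadjusted p below 0.05), limma-voom passed 0 and DESeq2 called 0 DE with 2 at an adjusted p below 0.05.

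**Figure D3:**
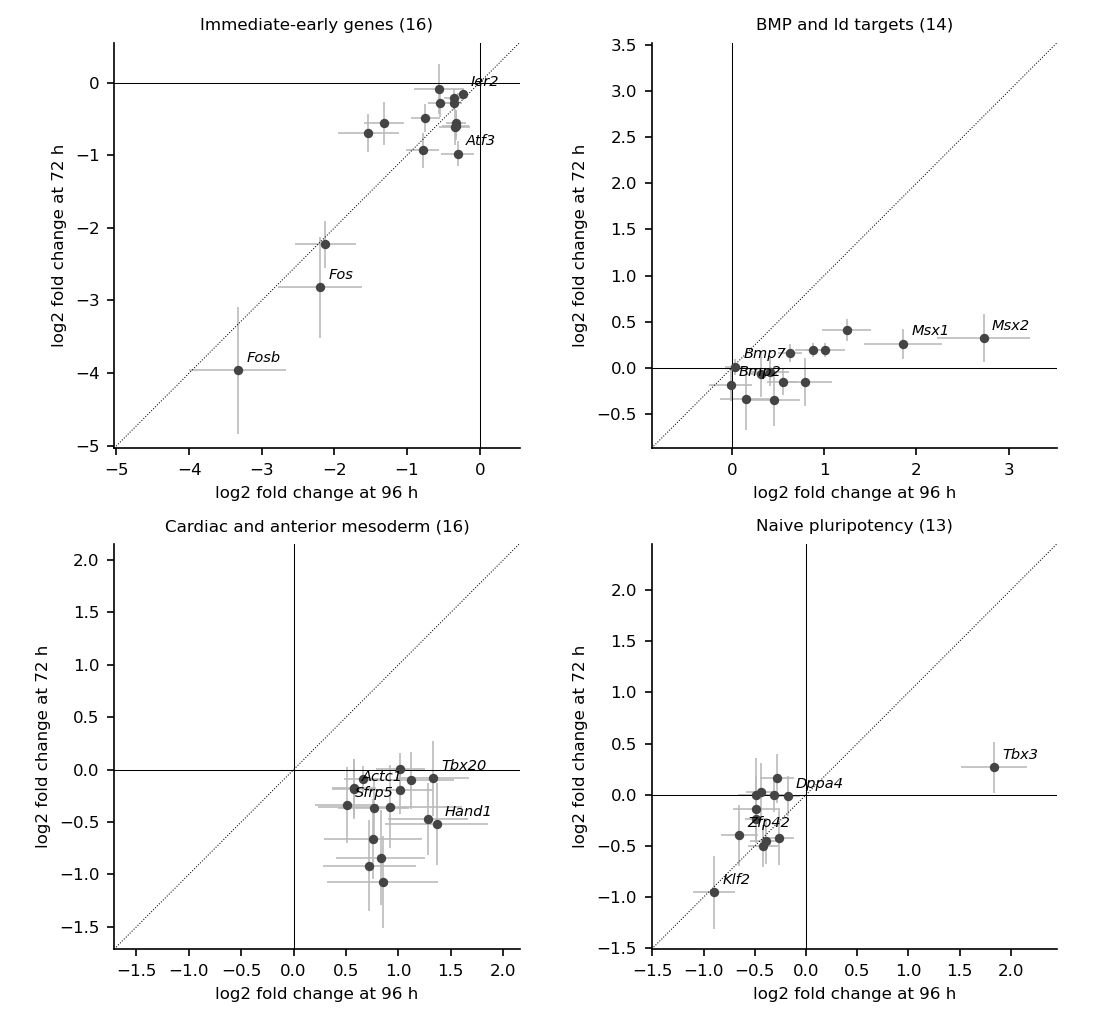
Log2 fold changes between gels (1.5 mM over 1.0 mM) at 96 h on the horizontal axis and at 72 h on the vertical axis, from separate libraries, for the members of 4 gene lists tested at both times. Points are genes, bars standard errors, and the dotted line marks equal values. Immediate-early genes lie along the line, with medians of -0.55 and -0.58, whereas BMP and cardiac genes lie to the right of it, with medians of 0.59 and 0.84 at 96 h and -0.02 and -0.35 at 72 h.

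Endothelial genes were higher by a small amount. All 13 listed genes were tested and had positive log2 fold changes, 5 were higher at an unadjusted p below 0.05, and the median was 0.23. Their summed level was 487, 452 and 463 CPM in the 1.0 mM gels and 532, 546 and 610 CPM in the 1.5 mM gels, without overlap. *Kdr*, the VEGF receptor gene that marks endothelial progenitors, was at 153, 135 and 141 CPM against 190, 176 and 181 CPM, a difference of 0.35 log2 units (SE 0.06, edgeR adjusted p = 0.122). *Sox7*, a factor of early endothelium, had a log2 fold change of 0.38 (edgeR adjusted p = 0.406). Without replicate 3 of the 1.0 mM gels, or without replicate 3 of the 1.5 mM gels, 2 genes of the list were higher at an unadjusted p below 0.05. In the fit of all 12 libraries 1 was. At 72 h 0 of the 13 passed in either direction, with a median of 0.0066.

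*Tbx3* (ENSMUSG00000018604, chromosome 5, from 119670669 to 119684724) encodes a T-box factor of naive stem cells that is also expressed in limb, heart and extraembryonic tissue. It was at 13.1, 14.1 and 5.66 CPM in the 1.0 mM gels and 30.0, 58.9 and 27.8 CPM in the 1.5 mM gels. The gels did not overlap, and the log2 fold change was 1.83 (95% interval 1.14 to 2.53, edgeR adjusted p = 0.122, DESeq2 adjusted p = 0.0460). It was the only higher gene in the list of naive pluripotency, of which all 15 members were tested. The other 14 were on the negative side, 8 of them lower at an unadjusted p below 0.05, with a list median of -0.44. *Klf2*, a Krüppel-like factor of naive cells that also responds to flow in endothelium, was at 18.2, 11.2 and 13.4 CPM against 9.97, 6.88 and 6.12 CPM (log2 fold change -0.90, edgeR adjusted p = 0.189). *Dppa5a* was at 50.1, 43.2 and 37.4 CPM against 30.6, 34.7 and 27.9 CPM (log2 fold change -0.49, edgeR adjusted p = 0.189). *Zfp42*, which encodes the stem cell factor Rex1, was at 10.0, 6.78 and 6.33 CPM against 5.02, 4.90 and 4.83 CPM (log2 fold change -0.65, edgeR adjusted p = 0.299). None of these 3 genes overlapped between the gels, and replicate 1 of the 1.0 mM gels was highest for each. Without that library 3 genes of the list were lower at an unadjusted p below 0.05, and without replicate 2 of the 1.5 mM gels 5 were. At 72 h 2 of 13 tested were lower and 0 higher, with a median of -0.14.

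**Figure D4:**
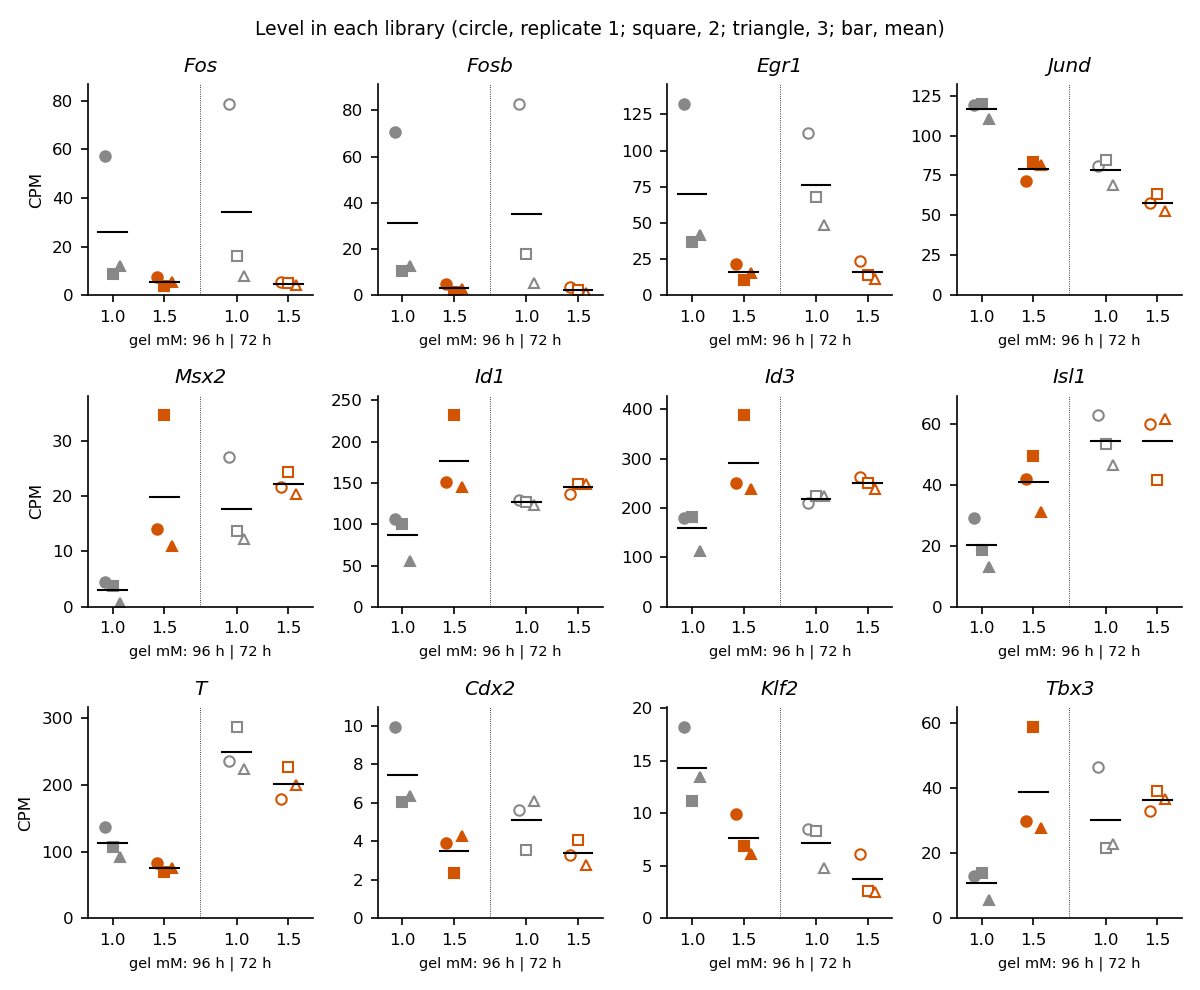
Level of 12 genes in CPM in each library, for embedding at 96 h (filled, left of the dotted line) and at 72 h (open, right), with 1.0 mM gels in grey and 1.5 mM gels in orange and bars at the mean of 3. CPM were normalised separately at each embedding time, so levels are to be compared within a time. At 96 h the gels do not overlap for any of the 12 genes, while at 72 h they overlap for *Msx2*, *Isl1*, *T*, *Cdx2*, *Klf2* and *Tbx3*.

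Of 17 posterior genes listed, 14 were tested, with 5 lower and 3 higher at an unadjusted p below 0.05 and a median of 0.02. The higher count rested on single libraries. It was 0 without replicate 3 of the 1.0 mM gels or replicate 2 of the 1.5 mM gels and 1 without replicate 1 of the 1.0 mM gels, whereas 4 to 6 genes were lower with any library left out. *T*, the T-box gene of the primitive streak and tail bud, was at 138, 107 and 92.0 CPM in the 1.0 mM gels and 83.4, 69.8 and 75.3 CPM in the 1.5 mM gels. All libraries of the stiffer gel were lower (log2 fold change -0.56, edgeR adjusted p = 0.166, DESeq2 adjusted p = 0.00123). *Cdx2*, a regulator of posterior Hox genes, was at 9.95, 6.05 and 6.36 CPM against 3.89, 2.35 and 4.28 CPM (log2 fold change -1.09, edgeR adjusted p = 0.184, DESeq2 adjusted p = 0.00503). *Nkx1-2*, a homeobox gene of the caudal epiblast, was at 2.43, 2.03 and 1.78 CPM against 0.642, 0.364 and 1.10 CPM (log2 fold change -1.56, edgeR adjusted p = 0.184, DESeq2 adjusted p = 0.0292). *Cdx1*, which is related to *Cdx2*, had a log2 fold change of -0.95 (edgeR adjusted p = 0.406) at under 1 CPM. At 72 h 3 of 12 tested posterior genes were lower and 1 was higher at an unadjusted p below 0.05, with a median of -0.08. *T* (log2 fold change -0.30) and *Cdx2* (-0.60) were lower there at that threshold, each with overlap between the gels, and *Nkx1-2* had -0.16.

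Hox genes, whose paralogue number rises toward the tail, were read in 3 classes. Of the 12 genes of paralogues 1 to 4, 3 were lower and 1 was higher at an unadjusted p below 0.05, with a median of -0.29. Of paralogues 5 to 8, 8 of 11 were tested, all 8 negative, with a median of -0.53, and 1 was lower. Only 2 of the 16 genes of paralogues 9 to 13 had enough counts, so their median of -1.32 describes *Hoxb9* and *Hoxd9* alone. *Hoxb9* was at 4.67, 2.76 and 3.51 CPM against 0.944, 0.890 and 1.73 CPM, without overlap (log2 fold change -1.62, SE 0.29, edgeR adjusted p = 0.122, DESeq2 adjusted p = 0.000919). Neither gene had enough counts to be tested at 72 h. *Hoxa3* was at 20.6, 21.1 and 25.3 CPM against 16.9, 20.1 and 21.3 CPM, and its libraries overlapped (log2 fold change -0.20).

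Node and notochord genes had a median of -0.31, with 4 of 14 lower and 1 higher at an unadjusted p below 0.05. The lower count was 2 without replicate 1 of the 1.0 mM gels or replicate 3 of the 1.5 mM gels and 7 without replicate 2 of the 1.0 mM gels or replicate 1 of the 1.5 mM gels, and the median ran from -0.37 to -0.16. *Lefty1*, an inhibitor of Nodal expressed at the midline, was at 13.3, 9.22 and 10.1 CPM in the 1.0 mM gels and 4.65, 5.06 and 6.08 CPM in the 1.5 mM gels. The gels did not overlap (log2 fold change -1.05, SE 0.17, edgeR adjusted p = 0.109, DESeq2 adjusted p = 4.43e-05). *Noto*, a homeobox gene of the node, was at 5.98, 3.90 and 2.26 CPM against 1.81, 0.971 and 1.53 CPM, again without overlap (log2 fold change -1.48, edgeR adjusted p = 0.189, DESeq2 adjusted p = 0.00670). At 72 h *Noto* had a log2 fold change of -1.01 and *Lefty1*, then below 1 CPM in every library, one of 0.63. Among 12 tested genes of Nodal signalling, 2 were lower and 2 higher, with a median of -0.07.

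Somite and presomitic genes had slightly negative medians at 96 h. Of 14 somite genes tested, 13 were on the negative side and 5 were lower at an unadjusted p below 0.05, with a median of -0.22. *Meox1* was at 328, 378 and 405 CPM against 243, 280 and 354 CPM (log2 fold change -0.34, edgeR adjusted p = 0.392), and its libraries overlapped. *Foxc1* was at 256, 275 and 274 CPM against 241, 265 and 267 CPM, with overlap and a 95% interval that lay inside 1 log2 unit (log2 fold change -0.06, SE 0.06). When replicate 3 of the 1.0 mM gels was left out, 0 somite genes passed that threshold, and when replicate 1 of the 1.5 mM gels was left out, 1 did. In the fit of all 12 libraries 0 did. At 72 h the somite list lay on the other side, with a median of 0.25, 2 of 14 higher and 0 lower, and the difference between embedding times was below an unadjusted p of 0.05 for 4 of the 14. Of 13 presomitic genes tested, 3 were lower and 0 higher, with a median of -0.19, and 1 was lower without replicate 1 of the 1.0 mM gels. At 72 h the presomitic median was 0.08, with 1 gene higher and 1 lower. Neural genes were 3 higher and 0 lower among 9 tested, with a median of -0.01, and included the Iroquois gene *Irx5* (log2 fold change 0.44, edgeR adjusted p = 0.220). *Sox2*, a factor of neural and stem cells, was at 37.7, 27.9 and 28.4 CPM against 31.5, 26.8 and 28.3 CPM, with overlap (log2 fold change -0.12). Of 15 endoderm genes, 3 were lower and 1 was higher, with a median of -0.18. The lower count was 1 without replicate 1 of the 1.0 mM gels or replicate 2 of the 1.5 mM gels and 5 without replicate 2 of the 1.0 mM gels or replicate 1 of the 1.5 mM gels.

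Genes of the extracellular matrix and its receptors differed little. Of 14 collagen chains and of 18 matrix proteases and their inhibitors, 0 passed an unadjusted p below 0.05 in either direction, with medians of 0.01 and -0.02. Of 19 integrins, laminins and fibronectin, 1 was lower, *Itga6*, a laminin receptor subunit, at 32.4, 22.4 and 28.2 CPM against 19.7, 12.8 and 20.4 CPM (log2 fold change -0.65, edgeR adjusted p = 0.255). *Dag1*, the dystroglycan gene and another laminin receptor, was at 133, 123 and 133 CPM against 105, 97.2 and 103 CPM without overlap (log2 fold change -0.35, edgeR adjusted p = 0.122). Of 15 genes of epithelial-to-mesenchymal transition, 5 were higher and 1 was lower, but the median was -0.03. Besides *Snai2* these included its relative *Snai1*, at 33.2, 38.9 and 26.4 CPM against 45.2, 78.5 and 49.6 CPM (log2 fold change 0.82, edgeR adjusted p = 0.189). The chemokine receptor gene *Cxcr4* was higher (0.33) and its ligand gene *Cxcl12* lower (-0.35) on the log2 scale, each with overlap between gels.

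**Figure D5:**
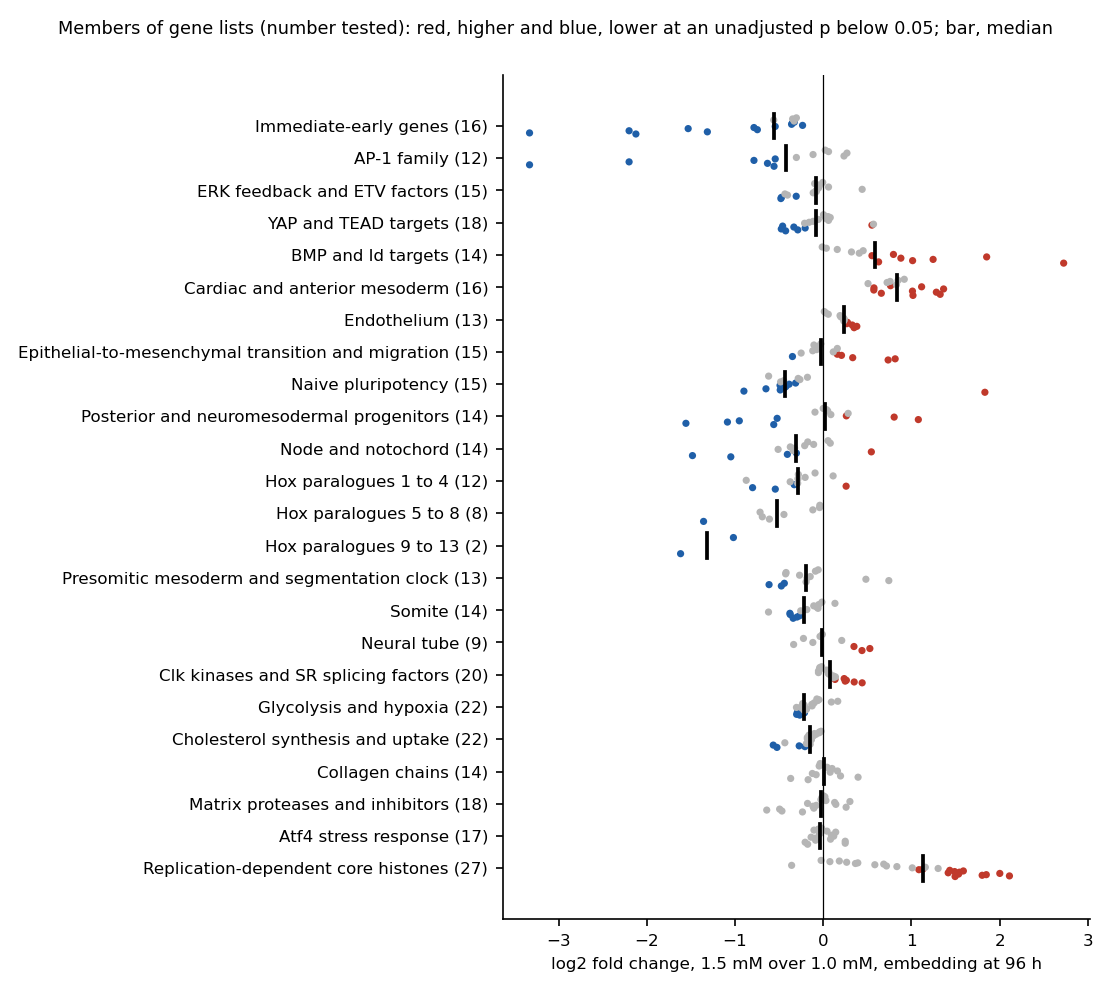
Log2 fold changes (1.5 mM over 1.0 mM, embedding at 96 h) of the members of 24 gene lists, with the number tested in brackets. Points are genes, red if higher and blue if lower at an unadjusted p below 0.05 and grey otherwise, and bars are list medians. Immediate-early, AP-1 and naive pluripotency genes lie to the left, BMP, cardiac, endothelial and histone genes to the right, and collagens and matrix proteases around 0.

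Splicing kinases and metabolic genes were examined as well. In a list of 20 Clk kinases and SR splicing factors drawn up after values had been seen, 6 were higher and 0 lower at an unadjusted p below 0.05, with a median of 0.08. *Clk4*, related to *Clk1*, was at 77.7, 83.0 and 80.2 CPM in the 1.0 mM gels and 97.4, 103 and 107 CPM in the 1.5 mM gels (log2 fold change 0.35, edgeR adjusted p = 0.122). All 22 genes of cholesterol synthesis and uptake had negative log2 fold changes, with a median of -0.15 and 4 lower at an unadjusted p below 0.05. The number of these genes that were lower ranged from 1, without replicate 1 of the 1.0 mM gels or replicate 3 of the 1.5 mM gels, to 15 without replicate 1 of the 1.5 mM gels. Glycolysis and hypoxia genes had 6 of 22 lower and a median of -0.21, and the count fell to 0 without replicate 3 of the 1.5 mM gels.

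Core histone genes, whose main transcripts carry no poly-A tail, had 13 of 27 tested genes higher at an unadjusted p below 0.05 and a median of 1.13. These genes were near the lower limit of detection, with 29 genes summing to 27.4, 36.1 and 30.3 CPM in the 1.0 mM gels and 38.2, 69.5 and 34.2 CPM in the 1.5 mM gels, and reads can be shared between their near-identical copies. *H4c4*, a histone H4 gene, was at 0.733, 1.3 and 1.26 CPM against 2.15, 4.61 and 2.55 CPM (log2 fold change 1.50, edgeR adjusted p = 0.184, DESeq2 adjusted p = 0.0101). *Gm25732*, a predicted microRNA gene (chromosome 4, from 139338206 to 139338265), was at 0.656, 0.975 and 1.07 CPM against 2.49, 5.06 and 1.22 CPM (log2 fold change 1.69, edgeR adjusted p = 0.255, DESeq2 adjusted p = 0.0224). Its mean FPKM was 0 in both gels. Of 42 microRNA genes tested, 8 were higher and 0 lower at an unadjusted p below 0.05. *H4c4* and *Gm25732* were both highest in replicate 2 of the 1.5 mM gels, the library with the largest rRNA share. Without that library 8 histone genes were higher and the median was 0.34. At 72 h 0 of 26 tested histone genes passed in either direction, with a median of -0.0083. *Lars2*, which encodes a mitochondrial leucyl-tRNA synthetase, was named after its values were seen. It was at 205, 461 and 406 CPM against 1135, 2755 and 637 CPM (log2 fold change 2.08, edgeR adjusted p = 0.160). These levels ranked the libraries in the order of their rRNA shares. *H4c4* kept that order except that replicates 1 and 3 of the 1.5 mM gels changed places. *Gm25732* kept it except that replicates 2 and 3 of the 1.0 mM gels did. How far rRNA carry-over enters these levels was not tested.

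The other genes with the smallest p were spread over many functions. On the higher side they were *Ager*, a receptor of advanced glycation products (log2 fold change 0.56), the Iroquois gene *Irx2* (0.50), *Greb1* (0.32), the Notch effector *Hey1* (0.56), the lysosomal exchanger *Clcn7* (0.33) and the cytokine receptor gene *Il20rb* (0.59), with edgeR adjusted p of 0.122 to 0.127. On the lower side they were *Myadm* (-0.51), the glycosyltransferase gene *B3gnt7* (-0.73), the orphan receptor gene *Nr6a1* (-0.35), the activin antagonist *Fst* (-0.38), *Odc1* of polyamine synthesis (-0.42), the cyclin gene *Ccnd1* (-0.38) and *Sim1*, a bHLH-PAS factor (-0.63), with edgeR adjusted p of 0.109 to 0.122. For each of these 13 genes the libraries of the gels did not overlap, as the choice of the genes required.

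Lists of other processes were counted as well. Among 17 genes of the Atf4 stress response 0 passed an unadjusted p below 0.05 at 96 h, with a median of -0.04, although 9 of the 17 were lower at 72 h. Of 18 mitosis genes 2 were higher and 0 lower (median -0.0033), of 15 p53 targets tested 2 were lower and 0 higher (median -0.06), and of 15 Wnt feedback genes 1 was higher and 1 lower (median -0.02). Among 14 Fgf ligands and receptors, listed after values had been seen, 2 were higher and 0 lower (median 0.06). The list of retinoic acid synthesis and response lay further from the background. Of its 12 tested genes 5 were lower (41.7%) and 2 higher (16.7%) at an unadjusted p below 0.05, with a median of -0.10. Both counts were 0 without replicate 3 of the 1.0 mM gels, and in the fit of all 12 libraries 1 gene was lower and 1 higher.

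Across all genes, the gel comparisons at 96 h and 72 h used different libraries. At 72 h edgeR called 0 of 15563 genes DE (1074 at an unadjusted p below 0.05), limma-voom called 0 and DESeq2 called 2. Of the 785 genes that were higher at 96 h at an unadjusted p below 0.05 and tested at both times, 584 (74.4%) had the same sign at 72 h, and 132 of these were also below 0.05 there, against 6 of the opposite sign. Of the 755 that were lower, 517 (68.5%) had the same sign and 90 were also below 0.05, against 10 of the opposite sign. Over all 15261 genes tested at both times the signs were the same for 57.8%. Of these same-sign genes 806 were below 0.05 at 72 h, against 249 of the opposite sign, and the counts above are to be read against these. Pearson's r between the log2 fold changes was 0.178, given as a description since genes of a library are not independent.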

How the data were processed

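RNA was poly-A selected and sequenced as stranded, paired-end libraries (75 bp). The authors trimmed reads with cutadapt 4.4, aligned them with STAR 2.7.10b to mm10 with an Ensembl-based annotation, and deposited raw read counts per gene without normalization. The methods name STAR as the source of the counts and the table's name refers to HTSeq, and the strand setting used for counting is not given in the sources used here, so overlapping and antisense genes cannot be told apart with certainty. The authors also deposited FPKM values from Cufflinks 2.2.1.3, used here for gene symbols, coordinates (written 1-based) and PCA. Their deposited comparison table, with log2 fold changes and adjusted p-values of their own, was not used.

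The 36 mitochondrial genes were left out, as in the study's methods. Counts of the 6 libraries were normalised with TMM, filtered with filterByExpr (minimum count 10, minimum total 15) and tested with edgeR 4.0.16 in R 4.3.3 (quasi-likelihood test, 2 groups of 3), with Benjamini-Hochberg adjustment over all genes tested. The script was tested on simulated counts. At these totals the spread between replicates limits the precision. Alternatives were DESeq2 1.42.0, limma-voom (limma 3.58.1), other normalizations and filters, all 12 libraries in a single fit, the replicate number as a block and each library left out.

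Genes named were those DE in edgeR or DESeq2, the 12 with the smallest p in each direction (mean of at least 100 counts, no overlap between gels), *T*, *Sox2*, *Foxc1*, *Dppa5a* and *Hoxa3*, and up to 4 members per list. A gene that falls under this rule is not reported here. The 34 gene lists were counted beside all genes, with no test of their own, and 3 lists were added after values had been seen. Members and lists were chosen with earlier results of these data known. Promoter windows are those of RefSeq (GRCm38.p6).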

Additional observations from a re-analysis of the deposited data

How the results depend on the processing

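With edgeR, the count of DE genes at 96 h was 0 with limma-voom, other normalizations, a stricter filter, all 12 libraries, mitochondrial genes kept or rRNA genes left out (the last added after seeing the data). It was 65 without the filter on low counts (51 higher, 14 lower), 10 with DESeq2, and 10 with DESeq2 without the filter (also added). Leaving out each library in turn gave 0 to 12 genes, namely 2 without replicate 1 of the 1.5 mM gels (*Gata2* and *Tbx3*), 12 without replicate 3 of those gels (among them *CT010467.1*, *Lars2*, *Msx2*, *Smad7* and *Tbx3*) and 0 without each of the other 4. DESeq2 with each library left out (added) gave 12, 11 and 6 genes without replicates 1 to 3 of the 1.0 mM gels and 13, 0 and 17 without those of the 1.5 mM gels, of which 0, 7, 5, 7, 0 and 7 were among its 10. Genes at an unadjusted p below 0.05 numbered 1000 (without replicate 2 of the 1.5 mM gels) to 1644 with a library left out and 1109 to 2246 otherwise. At 72 h the DE count was 2 with DESeq2 and 56 without the filter, and the test of the difference between embedding times gave 112 genes without the filter. Genes with intervals inside 1 log2 unit numbered 13023 to 13890.

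The replicate numbers were not taken to pair the samples, since the rule asked for all 3 correlations of same-numbered libraries to be above 0.1. The labels do not say whether a number marks a shared batch, and this check cannot settle it. The DE count of 0 thus rests on treating the replicates as unpaired. Deviations of same-numbered libraries from their group means correlated at 0.315, 0.116 and 0.045 for replicates 1 to 3. Replicate 3 of the 1.5 mM gels correlated best with replicate 2 of the 1.0 mM gels (0.111). Replicate 1 of the 1.0 mM gels correlated at -0.153 and -0.161 with replicates 2 and 3 of the 1.5 mM gels. With the replicate number as a block, edgeR called 51 genes at 96 h (41 higher, 10 lower, all 10 of DESeq2 among them), with 75 of 153 followed genes at an adjusted p below 0.05, and it called 16 at 72 h and 4 in the test of the difference between embedding times.

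Of the 153 genes followed through the settings, none of which edgeR called, 42 had an adjusted p below 0.05 with DESeq2 and 85 without the filter. A sign turned for *Sox2* (0.038 without replicate 1 of the 1.0 mM gels, lowest -0.19), *Foxc1* (0.0016 without replicate 1 of the 1.5 mM gels, lowest -0.093), *Lama1* (0.040 without replicate 3 of those gels, lowest -0.067) and *Runx1* (0.076 without replicate 2 and 0.016 without replicate 3 of those gels, lowest -0.35). The median of Hox paralogues 9 to 13 was -1.02 without the filter, -1.61 with a filter of 1 CPM in 3 libraries and -0.94 with DESeq2 without the filter. With a library left out, medians ran from -0.84 to -0.17 for Hox paralogues 5 to 8, -0.26 to -0.11 for presomitic genes, -0.071 to 0.27 for neural tube, 0.51 to 1.54 for cardiac genes, 0.34 to 1.35 for histones, -0.038 to 0.020 for mitosis, -0.10 to 0.062 for Wnt feedback, -0.070 to 0.017 for matrix proteases, 0.13 to 0.29 for extraembryonic endoderm and -0.22 to 0.53 for trophoblast markers. The causes of these shifts were not tested. Under 100 counts, intervals were wider than 1 log2 unit for many genes, so that smaller differences were not detectable there.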
